A study of Mus musculus with 2 samples.

Results

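Type I, III and V collagens (Col1a1, Col1a2, Col3a1, Col5a1, Col5a2, Col5a3) build the banded fibrils of connective tissue, and type VI collagen (Col6a1, Col6a2, Col6a3) builds the beaded filaments that lie around cells and between fibrils. These 9 genes were taken by symbol, and all 9 were found among the 17758 genes of a single-cell table and among the 16906 genes of a bulk table. The single-cell library (10x Chromium 3′ v3) held sorted peripheral lung cells of wild-type mice at postnatal day 3. The bulk library held PDGFRA+ cells sorted from the peripheral lung of Pdgfra-H2BGFP mice at the same age. In these mice the Pdgfra locus drives a stable green fluorescent protein fused to histone H2B, so the sort takes cells with nuclear fluorescence. Both are labelled as control lungs, each group held 1 sample, and whether animals were pooled is not stated. With no replicates, no difference was tested: levels, ratios and counts are described by their size, and all intervals cover counting error only.

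Fibrillar collagens are made as procollagens, in which 3 chains wind into a triple helix before secretion. Type I is mostly a heterotrimer of the chains encoded by Col1a1 and Col1a2, type III a homotrimer of the Col3a1 product, and type V sits within type I fibrils and limits their diameter. Type VI needs the products of Col6a1, Col6a2 and a longer chain, commonly that of Col6a3. In the lung, fibrillar collagen is densest around airways and vessels and in the pleura, and finer fibrils run in the alveolar walls that form after birth.

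On mm10 (GENCODE M21), Col3a1 (chromosome 1, 45311538 to 45349706, plus strand) and Col5a2 (chromosome 1, 45374321 to 45503282, minus strand) are neighbours with a gap of 24.6 kb and 0 protein-coding genes between them. Col6a1 (chromosome 10, 76708792 to 76726168, minus strand) and Col6a2 (chromosome 10, 76595762 to 76623630, minus strand) are neighbours 85.2 kb apart, also with 0 coding genes between. The other members lie apart. Col1a1 is on chromosome 11 (94936224 to 94953042, plus strand), Col1a2 on chromosome 6 (4504814 to 4541544, plus strand) and Col5a1 on chromosome 2 (27886425 to 28039514, plus strand). Col5a3 is on chromosome 9 (20770050 to 20815067, minus strand) and Col6a3 on chromosome 1 (90765923 to 90843971, minus strand). Exons of Col3a1 overlap a microRNA gene on the same strand (Gm47302), and exons of Col5a1 overlap 2 antisense transcripts (2810430I11Rik and Gm13372). Whether reads were counted by strand is not stated in the labels.

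RefSeq promoter sequences (GRCm38.p6) were matched for 7 of the 9 members, all but Col1a1 and Col5a2. The 120 bases before the start site are shown for the most abundant member, for the scarcest, and for 2 chains whose pattern over cell classes departed from the type I and III chains. Capitals mark a TATA box (TATAAA) or a GC box (GGGCGG), searched on both strands with the CCAAT box (CCAAT).
Col3a1: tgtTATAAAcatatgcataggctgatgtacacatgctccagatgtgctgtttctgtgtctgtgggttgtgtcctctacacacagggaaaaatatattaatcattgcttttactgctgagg
Col5a3: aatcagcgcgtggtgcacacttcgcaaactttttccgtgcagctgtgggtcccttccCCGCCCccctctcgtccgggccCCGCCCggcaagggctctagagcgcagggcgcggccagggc
Col5a1: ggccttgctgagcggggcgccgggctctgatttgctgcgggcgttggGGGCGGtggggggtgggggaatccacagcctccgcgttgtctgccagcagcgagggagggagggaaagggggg
Col6a3: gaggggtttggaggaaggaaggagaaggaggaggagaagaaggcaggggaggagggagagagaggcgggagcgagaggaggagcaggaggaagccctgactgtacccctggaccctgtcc
The windows are chr1:45311418-45311537 (plus strand), chr9:20815068-20815187 (minus), chr2:27886305-27886424 (plus) and chr1:90843972-90844091 (minus). The Col3a1 window holds TATAAA, beginning 117 bases before the start site. TATAAA is found at any position in 6.34% of 32851 promoter windows of the same length. Those of Col5a1 and Col5a3 hold GGGCGG or its complement, as do 26.5%. The Col6a3 window holds none of the 3 motifs, and CCAAT, found in 21.3% of all windows, is in none of the 4. Of the windows not shown, that of Col1a2 holds CCAAT and that of 1 Col6a2 start site holds the GC box. A match describes the letters of the window only.

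After filtering, 10137 cells were kept, and a level is the summed UMI values of a class scaled to 1000000 (CPM). The deposited UMI values are corrected for depth, so single-cell levels carry no counting interval. Before filtering, 27.7% of values above 0 were 1 in the 1000 cells with fewest genes, against 74.3% in the 1000 with most. A share of cells with a UMI counts cells with a corrected value above 0. Its interval covers the number of cells only, within 1 library, and not the correction. Since a 3′ UMI is taken once per transcript, these levels were compared between genes without division by length. Classes were named from marker genes that do not include the 9 collagens, and are called "-like" for that reason. They were 644 myofibroblast-like, 724 matrix-like (lipofibroblast or matrix fibroblast markers), 274 adventitial fibroblast-like, 242 smooth muscle-like and 141 pericyte-like cells, 2025 mesenchymal-like cells in all. All 7 myofibroblast markers were detected in the myofibroblast-like cells (4686 CPM summed), and so were all 8 smooth muscle markers, at 9785 CPM against 18284 in the smooth muscle-like cells. Marker lists were first scored by the mean log2 level of their genes, each taken relative to its mean over all clusters. By this score the smooth muscle list was above the myofibroblast list in both myofibroblast-like clusters. The scores were 6.12 against 5.96 in 510 cells and 4.84 against 4.55 in 134 cells. The name of these clusters rests on levels relative to the highest mesenchymal cluster. There the scores were 0.814 against 0.726 and 0.489 against 0.425 in favour of the myofibroblast list. Summed myeloid markers were 700 to 1549 CPM in 4 of the 5 classes and 6249 in the pericyte-like cells, where Cpa3 and Ms4a2 were at 0. Their part in the pericyte-like levels was not tested.

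All 9 chains were higher in mesenchymal-like cells than in the 8112 other cells. Col1a1 stood at 2361 against 50.2 CPM (47.1-fold), Col1a2 at 2976 against 67.9 (43.8-fold) and Col3a1 at 3345 against 112 (29.9-fold). The type VI chains followed with 488 against 26.1 CPM for Col6a1, 450 against 16.2 for Col6a2 and 564 against 17.5 for Col6a3. The other cells include 45 mesothelial-like cells, which held 2222 of the 4964 Col3a1 UMIs of that side. These cells also held 525 of its 2226 Col1a1 UMIs and 697 of its 3013 Col1a2 UMIs. All 9 members had a log2 ratio of at least 1 (with 1 CPM added to both sides), which held for 21.3% of 15392 genes with at least 20 UMIs. The median log2 ratio of the members was 4.89, beside 0.23 over all genes tested.

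Within the mesenchyme, adventitial fibroblast-like cells had by far the most collagen RNA. These cells, named after fibroblasts of the cuffs around larger vessels and airways, gave 3.73% of their UMIs to the 9 chains. The share was 0.836% in matrix-like, 0.645% in myofibroblast-like, 0.384% in smooth muscle-like and 0.311% in pericyte-like cells. Of the 9 chains, 8 were highest in adventitial fibroblast-like cells, and Col6a3 was highest in matrix-like cells. Against the other mesenchymal-like cells, 7 of 9 members reached a log2 ratio of 1 in the adventitial fibroblast-like cells, as did 5.81% of 12763 genes, and 0 members lay at -1 or below, as did 8.87%. The members' median was 1.79, beside -0.08 over all genes. In a finer clustering (Leiden resolution 2), the marker rule named 162 of the 274 cells matrix-like. Col1a1 was at 4624 CPM in these and at 16020 in the other 112 cells.

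In the other 4 classes, 0 members reached a log2 ratio of 1 against the rest of the mesenchyme, but 3 did in the matrix-like class at a finer clustering (Leiden resolution 2). For all genes that share was 6.07% in myofibroblast-like, 4.96% in matrix-like, 5.74% in smooth muscle-like and 7.11% in pericyte-like cells. At -1 or less were 8 of 9 members in smooth muscle-like cells (13.3% of all genes) and 5 in pericyte-like cells (17.1%). Another 3 were at that level in myofibroblast-like (9.44%) and 2 in matrix-like cells (11.9%). The adventitial fibroblast-like cells are part of the other side in each of these ratios.

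**Figure D1:**
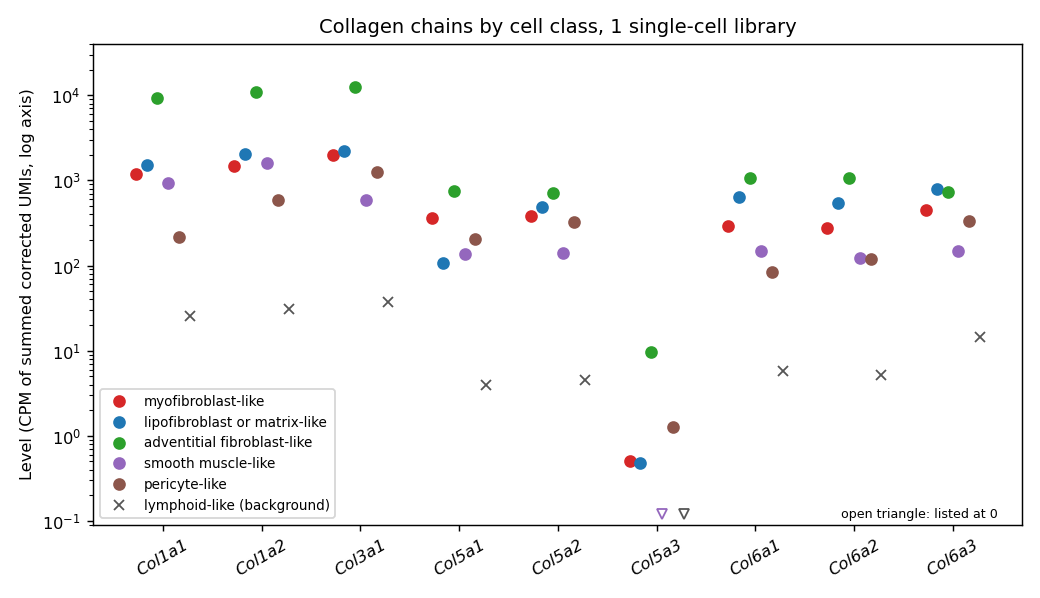
Level of each collagen chain (CPM of summed corrected UMIs, log axis) in the 5 mesenchymal-like classes and, as a cross, in lymphoid-like cells of the same library; open triangles are classes listed at 0. The adventitial fibroblast-like point is the highest of the 5 classes for 8 of the 9 chains, and Col5a3 lies under 10 CPM in all of them.

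The type I chains followed the same order as each other except for 1 exchange. Col1a1 was at 9376 CPM in adventitial fibroblast-like, 1518 in matrix-like, 1193 in myofibroblast-like, 944 in smooth muscle-like and 217 in pericyte-like cells. Col1a2 was at 10987, 2062, 1487, 1612 and 586 CPM in the same classes, so that smooth muscle-like cells were above myofibroblast-like cells for this chain. Col1a1 was detected in all 274 adventitial fibroblast-like cells, with 10.3 UMIs per cell at the 10th percentile, a median of 36.5 and 135 at the 90th. The median was 6 in myofibroblast-like, 8 in matrix-like and 5 in smooth muscle-like cells. In pericyte-like cells it was 1, and 51.1% of these cells (exact Clopper-Pearson 95% interval 42.5% to 59.6%) had a Col1a1 UMI.

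The type III chain separated the mural cells. Col3a1 was at 12568 CPM in adventitial fibroblast-like, 2221 in matrix-like and 2005 in myofibroblast-like cells. Pericyte-like cells held 1246 CPM and smooth muscle-like cells 589, the reverse of their order for both type I chains. Col3a1 was detected in 97.9% (93.9% to 99.6%) of pericyte-like and 87.2% (82.3% to 91.1%) of smooth muscle-like cells. The median per cell was 6 UMIs in pericyte-like cells and 2 in smooth muscle-like cells, and the classes' median numbers of detected genes were 2230 and 2401.

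**Figure D2:**
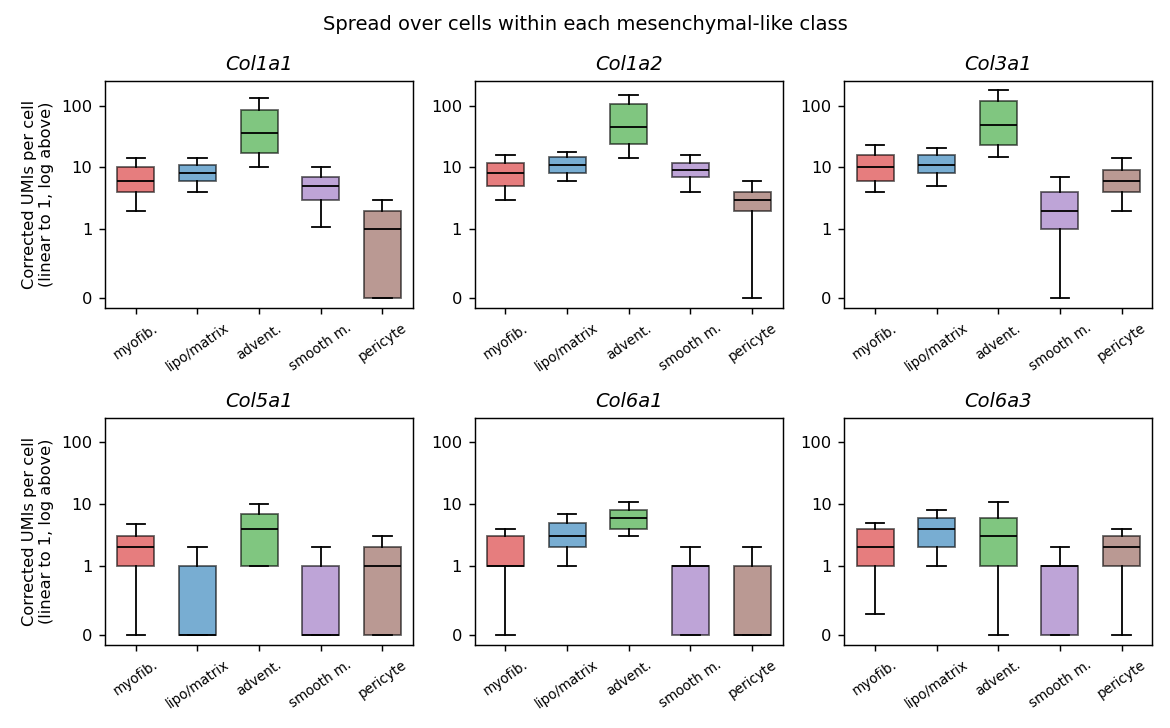
Corrected UMIs per cell of 6 chains in the 5 mesenchymal-like classes (axis linear to 1 and logarithmic above); boxes span the 25th to 75th percentile with the median as a line, and whiskers reach the 10th and 90th percentiles of cells. For Col1a1 the adventitial fibroblast-like whiskers run from 10.3 to 135 UMIs, whereas those of the myofibroblast-like cells run from 2 to 14.

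Of the type V chains, Col5a1 and Col5a2 form the common heterotrimer, and Col5a3 a less common one. Col5a1 was at 744 CPM in adventitial fibroblast-like, 359 in myofibroblast-like, 203 in pericyte-like, 136 in smooth muscle-like and 108 in matrix-like cells. The matrix-like cells, second for the type I and III chains, were therefore last for Col5a1, detected in 42.0% (38.4% to 45.7%) of them against 87.0% (84.1% to 89.5%) of myofibroblast-like cells. At the finer clustering (Leiden resolution 2), which moves 162 adventitial fibroblast-like cells into the matrix-like class, they were at 168 CPM, above the smooth muscle-like cells. Their median number of detected genes was 2351, against 2808 in myofibroblast-like cells.

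Col5a2 did not share that low point. It was at 705 CPM in adventitial fibroblast-like, 486 in matrix-like, 387 in myofibroblast-like, 322 in pericyte-like and 140 in smooth muscle-like cells. Col5a3 was close to the limit of the library, with 21 UMIs in all mesenchymal-like cells and 9 in all others. Of the 21, 16 were in adventitial fibroblast-like cells (9.54 CPM), where 4.74% of cells (2.55% to 7.98%) had a UMI. Of the 9 in other cells, 5 were in 45 mesothelial-like cells, a higher level of 17.7 CPM on very few UMIs. No Col5a3 UMI was found in 242 smooth muscle-like cells, which by the limit of 3 counts allows a share of up to 1.24% of cells with a UMI and sets no limit on cells that express the gene.

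The type VI chains had a smaller excess in adventitial fibroblast-like cells than the type I and III chains. Col6a1 was at 1065 CPM in adventitial fibroblast-like, 634 in matrix-like, 294 in myofibroblast-like, 150 in smooth muscle-like and 83.7 in pericyte-like cells. Col6a2 followed in the same order, at 1076, 537, 276, 122 and 119 CPM. Adventitial fibroblast-like cells exceeded the other mesenchymal-like cells 2.70-fold for Col6a1 and 3.10-fold for Col6a2, against 7.73-fold for Col1a1 and 6.85-fold for Col3a1.

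Col6a3, the chain with the longest product, had its own order. It was at 796 CPM in matrix-like, 734 in adventitial fibroblast-like, 447 in myofibroblast-like, 330 in pericyte-like and 150 in smooth muscle-like cells. The upper levels were close, and with stricter filters on cells (at least 1000 detected genes and at most 5% mitochondrial UMIs) adventitial fibroblast-like cells led with 682 CPM against 641. A UMI was found in 95.7% (94.0% to 97.1%) of matrix-like and 88.7% (84.3% to 92.2%) of adventitial fibroblast-like cells.

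Ratios between chains of 1 collagen type are described by class, from corrected UMIs, and do not measure the balance of the subunits made. In UMIs, Col1a1 over Col1a2 was 0.853 in adventitial fibroblast-like, 0.802 in myofibroblast-like, 0.736 in matrix-like, 0.585 in smooth muscle-like and 0.370 in pericyte-like cells. All 5 classes thus held fewer Col1a1 than Col1a2 UMIs. Among the 1658 mesenchymal-like cells with at least 10 UMIs of the type I chains, the share of Col1a1 had a median of 42.3%, with 26.3% at the 10th and 58.3% at the 90th percentile.

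Across types, Col3a1 over Col1a1 ranged from 0.624 in smooth muscle-like to 5.75 in pericyte-like cells. It was 1.34 in adventitial fibroblast-like, 1.46 in matrix-like and 1.68 in myofibroblast-like cells. Lymphoid-like cells of the same library, which carry collagen UMIs only at a low level, had 1.47. The smooth muscle-like ratio was lower than that value and the pericyte-like ratio higher.

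Col5a1 over Col5a2 was 0.222 in matrix-like cells, beside 0.929 in myofibroblast-like, 1.05 in adventitial fibroblast-like, 0.970 in smooth muscle-like and 0.630 in pericyte-like cells. The low ratio was present in both matrix-like clusters, at 0.217 in 663 cells and 0.269 in 61 cells. Col6a1 over Col6a2 kept to a narrow range, 0.990 to 1.24, in the 4 classes with at least 100 UMIs of both chains. Col6a3 over Col6a1 was 1.52 in myofibroblast-like, 1.26 in matrix-like, 1.0 in smooth muscle-like and 0.689 in adventitial fibroblast-like cells. Pericyte-like cells, with 66 Col6a1 and 94 Col6a2 UMIs, had 0.702 for Col6a1 over Col6a2 and 3.94 for Col6a3 over Col6a1.

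**Figure D3:**
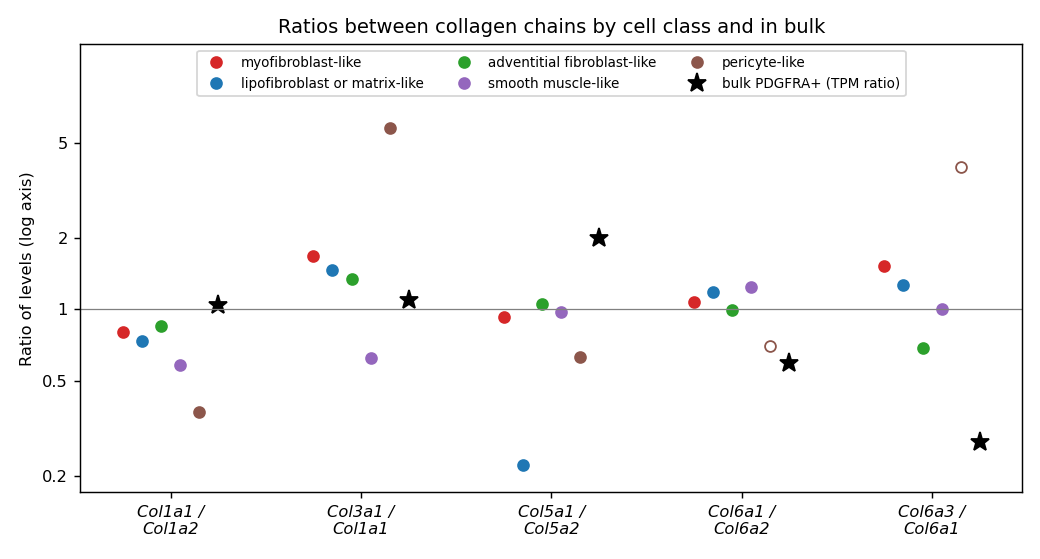
Ratio between collagen chains (log axis) in each mesenchymal-like class, from summed UMIs, and in the bulk PDGFRA+ library, from TPM (stars); open circles are ratios with fewer than 100 UMIs of a chain. The matrix-like point stands lowest for Col5a1 over Col5a2 at 0.222, and the pericyte-like point highest for Col3a1 over Col1a1 at 5.75.

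Over all 41 clusters, the levels of the type I and III chains ran close together. Pearson's r of log2(CPM + 1) was 0.980 for Col1a2 with Col3a1, 0.968 for Col1a1 with Col1a2 and 0.965 for Col1a1 with Col3a1. The neighbouring genes Col6a1 and Col6a2 had 0.943, and the neighbours Col3a1 and Col5a2 had 0.757. Col5a3 had the weakest relations, 0.362 to 0.547, on few UMIs. These correlations are descriptions over clusters that share 1 library. Within the 7 mesenchymal-like clusters r was 0.978 for Col6a1 with Col6a2, 0.974 for Col1a1 with Col1a2 and 0.903 for Col3a1 with Col5a2. It was 0.823 for Col1a2 with Col3a1, 0.807 for Col1a1 with Col3a1 and 0.189 for Col5a1 with Col6a3.

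The adventitial fibroblast-like cells were not uniform. Over the 274 cells, which share 1 library, Pearson's r of Col1a1 was 0.93 with Col1a2, 0.89 with Col3a1 and 0.73 with Col5a1. It was 0.27 with Col6a1, 0.20 with Col6a2 and -0.24 with Col6a3, and 0.03 with the number of detected genes. A finer clustering (Leiden resolution 2), made without the 9 collagens and the genes of the collagen pathway lists, divided the class into 112 and 162 cells. The marker rule named the 112 cells adventitial fibroblast-like and the 162 cells matrix-like.

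The 112-cell cluster was Dcn-high, with 4639 against 619 CPM of the fibril-binding proteoglycan decorin, and also higher in Pi16 (97.2 against 21.5) and Mfap5 (2595 against 746). The 162-cell cluster was higher in Tcf21 (533 against 164), Wnt2 (42.9 against 15.7) and Cldn11 (91.0 against 1.43). Pdgfra was at 126 and 146 CPM. These genes other than Dcn were named after their values were seen or serve as class markers.

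The fibrillar chains were higher in the Dcn-high cluster and the type VI chains were not. Col1a1 was at 16020 against 4624 CPM, Col1a2 at 18145 against 5868, Col3a1 at 22285 against 5618 and Col5a1 at 1197 against 420. Col5a2 was at 968 against 517 CPM. Col6a1 was level at 1078 and 1056 CPM, Col6a2 stood at 971 against 1151, and Col6a3 was lower in the Dcn-high cluster, at 372 against 993. Of the 9 members, 5 reached a log2 ratio of 1, as did 4.92% of 8614 genes, and 1 lay at -1 or below, as did 5.98%. The 8614 genes had at least 20 UMIs in these 274 cells. Col5a3, counted among the 5 members, had 16 and is not among the 8614. Both clusters were similar in median detected genes, 2853 and 2703. The 162-cell cluster still exceeded the 724 matrix-like cells in Col1a1, which had 1518 CPM there.

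**Figure D4:**
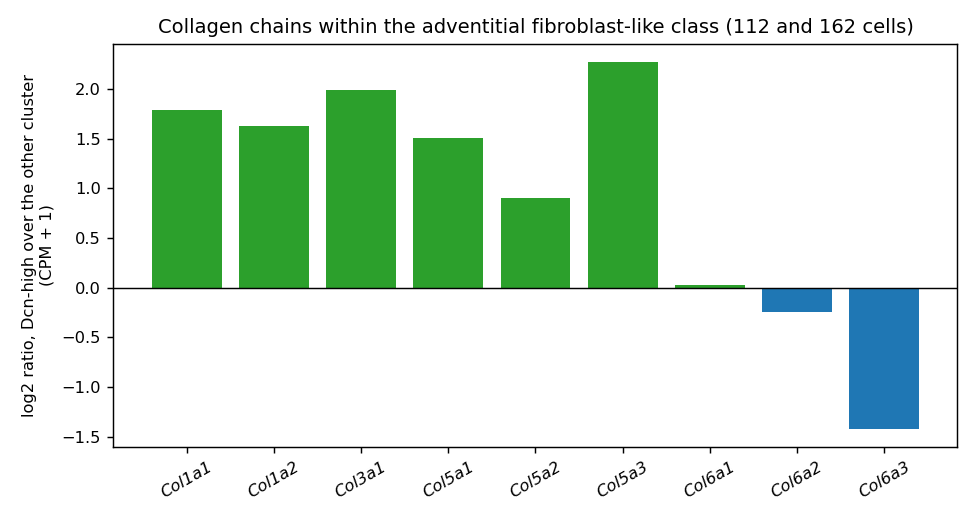
log2 ratio (1 CPM added to both sides) of the Dcn-high cluster of 112 cells over the other cluster of 162 cells within the adventitial fibroblast-like class, for each of the 9 chains. Bars for the type I, III and V chains point up, from 0.90 for Col5a2 to 2.27 for Col5a3, which rests on few UMIs, and the Col6a3 bar points down to -1.42.

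In the myofibroblast-like class, the alveolar contractile cells that deposit elastin at septal tips, collagen RNA differed between clusters and with the detection of Pdgfra. The class held a cluster of 510 cells and a cycling cluster of 134 cells, in which 5 cell cycle genes had a median of 644 CPM against 23.7. Col1a1 was at 893 CPM in the cycling cluster against 1275 in the other, Col3a1 at 1279 against 2203 and Col6a1 at 182 against 325. At Leiden resolution 2 a low level was not particular to the cycling cells: Col1a1 was at 895 CPM in a cluster of 175 cells led by Prokr2 and Stc1, at 888 in the cycling cluster, then of 135 cells, and at 1472 in a cluster of 334 cells led by Fgf18. Col3a1 was at 1538, 1278 and 2547 CPM in these clusters. In matrix-like cells the cycling cluster of 61 cells had Col1a1 at 1481 against 1521 CPM and Col3a1 at 2631 against 2179. Col1a2 was at 1685 against 2100 CPM there, Col6a1 at 633 against 634 and Col6a3 at 726 against 803.

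Pdgfra, the receptor gene behind the bulk sort, was detected in 70.8% of myofibroblast-like, 57.3% of adventitial fibroblast-like and 20.3% of matrix-like cells. It was detected in 3.31% of smooth muscle-like and 1.42% of pericyte-like cells, and the lymphoid-like share was 0.539%. The 456 myofibroblast-like cells with a Pdgfra UMI had lower collagen levels than the 188 without. Col1a1 was at 1020 against 1640 CPM, Col3a1 at 1654 against 2915 and Col6a1 at 247 against 415. Pdgfra was also among the leading genes of the 175-cell and 135-cell clusters at Leiden resolution 2, and not of the 334-cell cluster. Median detected genes were 2903 in cells with and 2571 in cells without a Pdgfra UMI. The parts of these clusters and of this depth gap in the difference were not tested. In adventitial fibroblast-like cells the order was the other way, with Col1a1 at 9851 CPM in 157 cells with Pdgfra and 8716 in 117 without.

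Outside the mesenchyme, lymphoid-like cells, which are not known to make these chains, serve as a low reference. In them Col1a1 was at 25.5 CPM in 8.98% of cells and Col3a1 at 37.6 CPM in 12.8%, with a median of 1633 detected genes. They do not set a floor for the library, since alveolar type 2-like cells had Col1a1 at 8.50 CPM and Col3a1 at 8.07. Myeloid-like cells had 30.2 and 44.5 CPM. Among the unnamed clusters, 1 of 829 cells with neutrophil genes such as Csf3r had Col3a1 in 63.6% of cells (194 CPM) and Col1a1 in 15.1%. Another of 168 cells had Col1a1 in 76.8% (525 CPM). Their median numbers of detected genes were 1010 and 1086, and the part of depth in these shares was not tested.

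The 45 mesothelial-like cells, of the pleural lining, were rich in collagen, with 1.51% of their UMIs in the 9 chains. Col3a1 was at 7852 CPM, Col1a2 at 2463 and Col1a1 at 1855, a Col3a1 over Col1a1 ratio of 4.23. Col6a1 and Col6a2 were at 1025 and 901 CPM, near the adventitial levels, whereas Col6a3 was at 124. Col5a2 was at 739 CPM and Col5a1 at 148.

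Some epithelial and endothelial cells held 1 chain well above its partners. In 384 alveolar type 2-like cells, the surfactant-producing cells, Col6a1 was at 140 CPM and detected in 48.7% (43.6% to 53.8%). Col6a2 was at 31.4 CPM in 16.7% (13.1% to 20.8%), and Col6a3 at 2.97 CPM in 1.56%. The lymphoid-like shares were 2.38%, 2.20% and 5.97%, so the alveolar type 2-like share lay under the lymphoid-like share for Col6a3. Median detected genes were 2220 in alveolar type 2-like cells and 1633 in lymphoid-like cells.

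In 34 alveolar type 1-like cells, the flat gas-exchange cells, Col5a2 was at 283 CPM and detected in 73.5% (55.6% to 87.1%), against 1.98% of lymphoid-like cells. Col5a1 was represented there by 3 UMIs in 1 cell, and Col1a1 by 8 UMIs. Their median number of detected genes was 2340. The 896 endothelial-like cells had Col5a2 at 60.5 CPM in 24.0% (21.2% to 26.9%), and in a cluster of 84 cells led by Vwf it reached 159 CPM in 57.1%. A different endothelial-like cluster, of 194 cells with Apln and Kdr among its leading genes, held Col6a1 at 139 CPM in 27.8% and Col5a2 at 10.1 CPM. These clusters and chains were singled out after their values were seen.

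The genes that process collagen were described for the 3 fibroblast-like classes together (1642 cells) over all other cells, where 20.2% of 15392 genes reached a log2 ratio of 1 and 16.7% lay at -1 or below. The median over all genes was 0.22. The 9 collagens had a median of 4.53. Of 20 tested genes for procollagen folding and modification, 12 reached 1 and 0 lay at -1 or below (median 2.43). P4ha3, a prolyl 4-hydroxylase subunit, had 4.38 and was highest in myofibroblast-like cells at 169 CPM, against 39.9 in adventitial fibroblast-like and 4.86 in matrix-like cells. P3h3 (3.68) and P3h1 (3.16), of the prolyl 3-hydroxylase family, were highest in adventitial fibroblast-like cells, at 181 and 98.4 CPM. Creb3l1, a transcription factor that activates collagen genes, had 3.50 and was at 191 CPM in adventitial fibroblast-like, 101 in matrix-like and 10.2 in myofibroblast-like cells.

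Of 7 tested genes for propeptide removal, 5 reached 1 and 0 lay at -1 or below (median 2.24). The named genes were the procollagen C-proteinase gene Bmp1 (2.24), the N-proteinase gene Adamts2 (4.14) and the C-proteinase enhancer genes Pcolce (3.93) and Pcolce2 (5.76). Adamts2 was at 652 CPM in adventitial fibroblast-like cells and at 49.4 to 251 in the other mesenchymal-like classes. Pcolce2 was at 336 CPM in matrix-like and 323 in adventitial fibroblast-like cells, against 12.0 in myofibroblast-like cells.

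All 4 tested lysyl oxidase genes, whose products cross-link collagen and elastin, were at 1 or more (median 3.64), and they divided by class. Lox was highest in adventitial fibroblast-like cells at 293 CPM, against 51.8 in myofibroblast-like cells, and Loxl1 likewise at 798 against 273. Loxl2 was highest in myofibroblast-like cells, at 619 CPM against 175 in adventitial fibroblast-like cells, and Loxl3 was at 44.9 CPM in myofibroblast-like, 44.4 in pericyte-like and 23.8 in adventitial fibroblast-like cells. The log2 ratios over other cells were 3.32, 3.98, 3.97 and 2.91 in that order. Loxl4 had too few UMIs to be tested.

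All 15 genes for fibril-associated proteins were at 1 or more (median 4.05). Dcn (5.28) and Lum (4.41), which encode small leucine-rich proteoglycans that bind fibrils, were at 2295 and 142 CPM in adventitial fibroblast-like cells, and at 28.0 CPM or less for Dcn and 2.04 or less for Lum in the other 4 mesenchymal-like classes. Ogn (4.93) was also highest there, at 754 CPM. Dpt (5.97), for the fibril-binding protein dermatopontin, was at 776 CPM in matrix-like and 643 in adventitial fibroblast-like cells.

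Of 11 tested collagen receptor genes, 5 reached 1 and 1 lay at -1 or below (median 0.62). The fibrillar collagen receptor gene Ddr2 had 3.76, the type VI receptor gene Antxr1 3.03 and the collagen uptake receptor gene Mrc2 4.58, highest in matrix-like cells at 269 CPM. Lair1, an inhibitory collagen receptor of immune cells, had -3.28 and was highest in myeloid-like cells at 71.1 CPM.

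Of 9 genes for collagen breakdown and its inhibitors, 5 reached 1 and 2 lay at -1 or below (median 1.40). Mmp2 (5.0) and its activator Mmp14 (3.33) were higher in the fibroblast-like classes, whereas Mmp8 (-4.58) and Mmp9 (-4.37), known from neutrophils, were highest in myeloid-like cells at 303 and 326 CPM. Of 7 tested genes for other fibrillar and type VI chains, 4 reached 1 and 1 lay at -1 or below (median 2.68). Col27a1 (4.24), Col2a1 (3.20) and Col24a1 (3.16) were highest in myofibroblast-like cells, at 225, 23.5 and 18.6 CPM. Col6a6 (-1.04), an alternative to Col6a3 in type VI, was at 113 CPM in mesothelial-like and 60.8 in smooth muscle-like cells and under 3 CPM in the fibroblast-like classes.

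The genes most like each member were taken by Pearson's r of log2(CPM + 1) over the 41 clusters, among genes with at least 100 UMIs. Rarres2 was among the 3 most alike for Col1a1 (0.911), Col1a2 (0.917) and Col3a1 (0.938), and Fgf2 for Col1a1 (0.917) and Col3a1 (0.902). Cdh11, a mesenchymal cadherin, was among them for Col1a1 (0.908), Col6a1 (0.893) and Col6a3 (0.908). Loxl1 was named for Col6a2 (0.934) and Col1a2 (0.897), Mdk for Col1a2 (0.901) and Col6a3 (0.902), Nkain4 for Col3a1 (0.925) and Adamts2 for Col6a3 (0.904).

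Col6a1 and Col6a2 shared Snhg18 (0.899 and 0.916) and Sema5a (0.886 and 0.900). Those of Col5a2 were Fkbp10 (0.897) and Fkbp7 (0.888), which encode peptidyl-prolyl isomerases of the endoplasmic reticulum, and Nr2f2 (0.896). Those of Col5a1 were Tmem45a (0.880), Fxyd1 (0.877) and Kirrel (0.874). Col5a3 had Sfrp1 (0.822), Has1 (0.822) and C1rb (0.729), on its few UMIs.

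In the bulk PDGFRA+ library the fibrillar chains stood near the top of all genes. By the deposited TPM, a level per kilobase, Col3a1 was at 7550 (rank 6 of 16906), Col1a1 at 6901 (rank 7) and Col1a2 at 6647 (rank 8). Col6a2 was at 2445 TPM (rank 59) and Col6a1 at 1456 (rank 112), ahead of Col5a1 at 731 (rank 205), Col6a3 at 405 (rank 367) and Col5a2 at 365 (rank 403). Col5a3 was at 20.4 TPM (rank 5620). The 9 genes made up 2.65% of all TPM and 7.36% of all 171910584 reads. These ranks and shares are over the 16906 listed genes, of which 0 carry a mitochondrial (mt-) symbol. Scaled to 1000000 reads, Col3a1 was at 21339 (exact Poisson 95% interval 21318 to 21361), Col1a1 at 20807 (20786 to 20829) and Col5a3 at 63.4 (62.23 to 64.62).

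Per kilobase, the bulk ratios were 1.04 for Col1a1 over Col1a2, 1.09 for Col3a1 over Col1a1, 2.0 for Col5a1 over Col5a2, 0.596 for Col6a1 over Col6a2 and 0.278 for Col6a3 over Col6a1. The UMI ratios over all mesenchymal-like cells were 0.793, 1.42, 0.671, 1.09 and 1.16. The scales count different parts of a transcript in different mice, so the values are set side by side only. The cell sets differ too, since the mesenchymal-like pool includes smooth muscle-like and pericyte-like cells, with Pdgfra detected in 3.31% and 1.42%. By class, the UMI ratio of Col5a1 over Col5a2 was 0.929 in myofibroblast-like, 1.05 in adventitial fibroblast-like and 0.222 in matrix-like cells. Without division by length the bulk Col6a3 over Col6a1 ratio was 0.655, since Col6a3 is the longer transcript. In all these bulk values, fewer cells of a type and less RNA per cell cannot be told apart.

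The bulk library held markers of all 3 fibroblast-like classes. The median was 96.9 TPM over 7 myofibroblast markers, 75.5 over 12 lipofibroblast or matrix fibroblast markers and 632 over 8 adventitial markers, and 288 over 8 smooth muscle markers. Endothelial markers had a median of 3.21 TPM and lymphoid markers 0.520, with 5 of the 8 listed lymphoid markers under 1 TPM. Erythroid markers ranged from 2.40 to 16600 TPM, and their part in the share of reads left for the collagens was not tested. Among the processing genes, the collagen chaperone gene Serpinh1 was at 2147 TPM (rank 74), Loxl1 at 1219 (rank 129), Mmp2 at 1077 (rank 146) and Dcn at 962 (rank 156). Lox was at 232 TPM (rank 620), Loxl2 at 406 (rank 366) and P4ha3 at 57.9 (rank 2583).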

How the data were processed

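The submitters' processing notes list Cell Ranger 5.0 with Seurat 3.2.2 for the single-cell library, and Trim Galore, HISAT2, featureCounts and DESeq2 (no versions) with mm10 for the bulk library. No build is given for the single-cell table. Its deposited values were used as a score, since whole-number UMIs whose totals per cell span 1.79-fold are not raw, and the step behind them is unknown. For the bulk library the authors deposited an expected count per gene (15.9% not whole), TPM, and FPKM, which was not used. The tests planned had assumed raw counts in the single-cell table, and no counting intervals were therefore given for its levels.

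Cells over 10% mitochondrial UMIs (646) and predicted doublets (523 of 10660, 4.91%, by a re-implemented Scrublet score) were left out, and 0 cells had fewer than 500 detected genes. The 10137 cells kept came from 11306 cells with 62575796 UMIs. Leiden clustering at resolution 1 (leidenalg 0.10.2, 2000 variable genes without members or list genes, 30 components, 15 neighbours) gave 41 clusters. Clusters took the name of the best-scoring of 17 marker lists, with mesenchymal types decided by levels relative to the mesenchymal maximum. Clusters with mixed evidence, 27.2% of cells, were left unnamed. The details of naming and the choice of cycling clusters were set after seeing the data.

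The members, the 7 pathway lists and the tests were chosen with earlier results of these data known. Named genes are the 9 members, the 3 genes most alike each, and per list up to 4 genes with the largest absolute log2 ratio among those with at least 100 UMIs. In a test on simulated data, Poisson counts were drawn from the pooled mesenchymal-like profile. Log2 ratios of 1, 2, -1 and -2 planted for adventitial fibroblast-like over other mesenchymal-like cells were recovered as 0.99, 2.01, -1.03 and -1.98 (50 genes each of 12742). Of the unplanted genes, 1.25% passed 1 or -1. Such counts lack the depth correction and the spread between cells of the real values. The test therefore checks the arithmetic of the ratios and gives no error rate for the data. Depth was 3859 to 6899 corrected UMIs per cell.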

Additional observations from a re-analysis of the deposited data

How the results depend on the processing

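No paired analysis was possible because each group held 1 sample. The adventitial fibroblast-like class had 6 to 8 members with a log2 ratio of at least 1 in all alternatives run. At Leiden resolution 2, where its 162 cells with fewer fibrillar chains join the matrix-like class, that class had 3 members at 1 or more in place of 0, and Col6a3 in the adventitial fibroblast-like class moved from 0.45 to -0.63. With at least 1000 detected genes and at most 5% mitochondrial UMIs (7148 cells), 0 members were highest in matrix-like cells in place of 1. The mesenchymal-like ratios then were 1.38 for Col3a1 over Col1a1, 0.753 for Col5a1 over Col5a2, 1.03 for Col6a1 over Col6a2 and 1.02 for Col6a3 over Col6a1. The cause was not tested. In bulk reads scaled to 1000000 without division by length, Col1a1 over Col1a2 was 1.18, Col3a1 over Col1a1 1.03, Col5a1 over Col5a2 2.50, Col6a1 over Col6a2 0.631 and Col6a3 over Col6a1 0.655, since the chains differ in length. With 10 CPM in place of 1 added to both sides, Col5a3 in adventitial fibroblast-like cells went from 2.82 to 0.90. Leiden resolution 0.5, keeping doublets, means over cells and, added after seeing the data, leaving out the cycling clusters left these counts as they were, with Col6a3 over Col6a1 in mesenchymal-like cells at 1.13 to 1.17. Col5a3 levels rest on 21 UMIs in mesenchymal-like cells, and the single library gives no spread between animals.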
